A study of Polypedilum vanderplanki with 24 samples.

Results

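The genes described here are the sequence-specific transcription factor genes of Pv11 cells, which were taken from the annotation in the deposited table as those with the Gene Ontology term for DNA-binding transcription factor activity. Genes that also carried the term for signal transduction or for the nucleosome were left out, which removed 3 of 164 genes and left 161 of the 17782 genes in the table. Pv11 cells were cultured from the sleeping chironomid, the midge *Polypedilum vanderplanki*, and tolerate near-complete drying after incubation in a concentrated trehalose solution. Poly(A) RNA was sequenced from 4 lines before trehalose (T0) and after 48 h in it (T48), in 24 libraries with 3 in each of 8 groups. The question addressed by the 4 lines is how heat shock factor 1 (HSF1) contributes to expression before and during trehalose treatment.

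WT cells were the parental line. *Hsf1*-/- cells were 1 clone of it with AcGFP1 and the zeocin resistance gene ZeoR inserted in exon 1 of *Hsf1*. *Hsf1*-/-; HaloTag/BlaR cells (the control cells) were derived from that clone and carried HaloTag and the blasticidin resistance gene BlaR ahead of the stop codon of *g7775*. *Hsf1*-/-; *Hsf1*-HaloTag/BlaR cells (the HSF1-rescue cells, or rescue cells) carried a tagged *Hsf1* with HaloTag and BlaR at the same locus, so that their *Hsf1* was driven from *g7775* and not from its own promoter. The control, HSF1-rescue and *Hsf1*-/- cells therefore all kept the insert in *Hsf1* and had passed through cloning and zeocin selection, which WT cells had not. Each comparison of single clones also compares those clones, and the part of clonal origin in a difference between lines cannot be told apart from that of the insert.

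The deposited expression values are the authors' mean TPM (reads scaled to gene length and library total) of the 3 libraries of each group, which allow levels of different genes to be compared. No library values were used, so no value below has a replicate error and no difference was tested between groups. Sequencing depth is unknown from TPM. Here past 2-fold means a difference of 1 or more in log2(TPM + 1) between groups of which one, or both, had a mean of 1 TPM or more. Every log2 ratio is on this scale, so the changes of weakly expressed genes are understated. TPM values are shares of a total, and the median log2 ratio of all genes of at least 1 TPM was 0.53 at T48 over T0 in WT, 0.30 in *Hsf1*-/-, 0.35 in control cells and 0.08 in rescue cells. It was -0.34 for rescue over control cells at T48 and 0.29 for *Hsf1*-/- over WT at T0. Scaling by median-of-ratios factors (the lowest was 0.774, in WT at T0, and the highest 1.22, in control cells at T48) moved all of these medians to between -0.01 and 0.00. Values are as deposited unless they are said to be scaled.

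Transcription factors of this kind bind short DNA motifs near genes through a folded domain, and the families are named after that domain: the basic leucine zipper (bZIP) factors, the nuclear receptors, the forkhead factors and others. HSF1 is itself such a factor. It gathers into trimers under proteotoxic stress and binds heat shock elements (HSEs), runs of inverted GAA units, in the promoters of chaperone and other genes. In insects, nuclear receptors and ETS factors carry the ecdysone response, bZIP factors of the ATF4 and cap'n'collar types carry amino acid and oxidative stress responses, and Clock, cycle and vrille form part of the circadian oscillator.

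The deposited table also lists matches to 5 HSE motifs in 1000 bp centred on each start site (the JASPAR motifs MA0771.1, MA0770.1, MA0486.2, MA0486.1 and MA0319.1). Matches stood near 36 of the 161 transcription factor genes, or 22.4%, against 27.6% of all genes. Without the 8-base yeast-type motif MA0319.1 the shares were 16.1% (26 genes) and 19.1%. The members were thus at or slightly under the share of all genes. Among genes of at least 1 TPM the shares were 25.3% of members and 28.6% of all genes, and 20.5% and 20.4% without MA0319.1. By motif, matches to MA0771.1 stood near 8.35% of all genes, to MA0770.1 near 11.4%, to MA0486.2 near 12.2%, to MA0486.1 near 6.81% and to MA0319.1 near 10.5%. The members' shares in the same order were 6.83%, 11.2%, 9.94%, 5.59% and 8.07%. Among genes of at least 1 TPM the members were higher for MA0770.1 (16.9% against 12.5%), MA0486.1 (8.43% against 7.43%) and MA0771.1 (9.64% against 9.24%). They were lower for MA0486.2 (10.8% against 13.0%) and MA0319.1 (4.82% against 10.6%). The motifs overlap each other, and the 74 matches of the members fell on 50 distinct sites, each on the strand of its gene. The sites below are a selection: those of the highest scores among the members, of the gene annotated as heat shock factor (*g3611*, called *Hsf1* below) and of some members whose levels differed between lines. Sites of other such members, among them *g3559* and *g835*, are not printed. Capitals mark the GAA and TTC units, and each sequence is given 5′ to 3′ on the strand of the gene.
*g3611* (*Hsf1*), distal site: atctaGAAttTTC
*g3611* (*Hsf1*), proximal site: TTCtaGAAttttt
*g4247* (Runt domain): TTCtaGAAttttt
*g10955* (ecdysone receptor): atctcGAAtcTTC
*g15394* (GATA factor): TTCtaGAAaattt
*g7121* (Clock): TTCtaGAAatctc
*g363* (FOXO): TTCgagctcgTTC

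The *Hsf1* sites lay in the search region chr1:26746696-26747696 of assembly Pv_5.2, 304 and 294 bp upstream of the start site of the gene, and the last 3 bases of the distal site are the first 3 of the proximal one. Both together read as an unbroken row of inverted units. The site of *g4247* (region chr2:615907-616907), with the same 13 bases as the proximal *Hsf1* site and the same FIMO score of 15.7 for MA0770.1, was centred 49 bp downstream of the centre of its region. That of *g10955* (chr3:13000500-13001500) was 215 bp downstream with a score of 14.5 for MA0771.1, and that of *g15394* (chr4:5312871-5313871) was 270 bp upstream with 14.1 for MA0770.1. Those of *g7121* (chr2:21339419-21340419) and *g363* (chr1:2974206-2975206), 248 and 115 bp downstream, scored 11.5 and 11.9 for MA0771.1. All distances are from the centre of the search region, which is taken as the start site. For *g4247* this centre and the match both lie upstream of the start of the gene as given below. Positions could be off by 1 base. A match is a run of letters that fits the motif, and binding at these sites was not measured in the values used here.

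**Figure D1:**
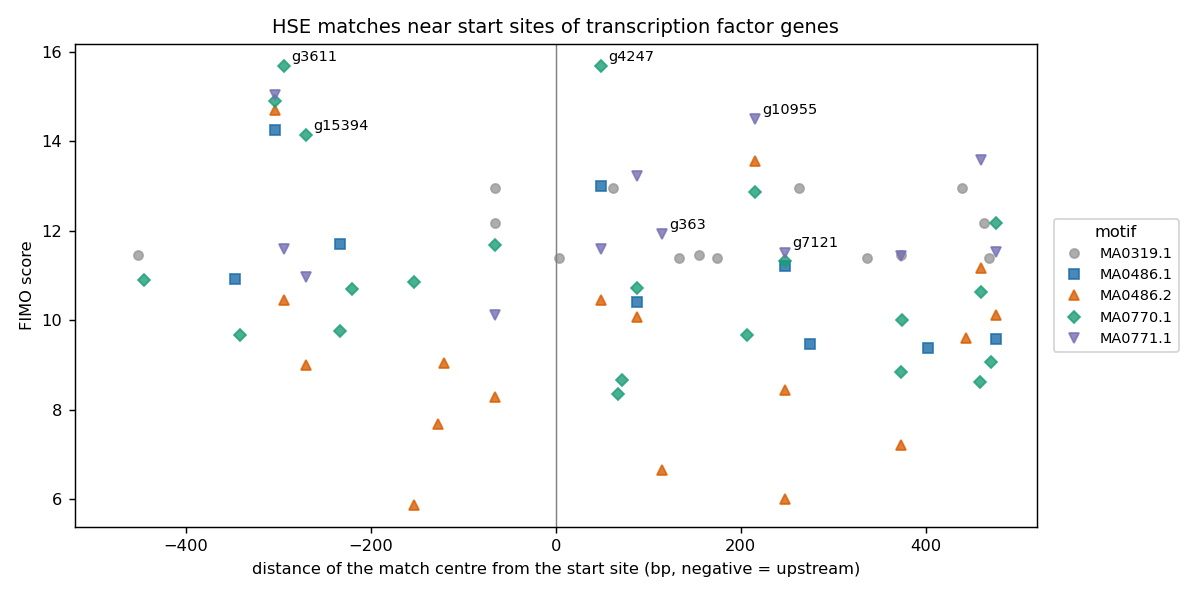
Each point is 1 HSE match near a transcription factor gene, with its distance from the start site in bp on the x axis (negative is upstream) and its FIMO score on the y axis, by motif. The start site is the centre of the search region. The 2 highest scores, both 15.7, belong to *g3611* (294 bp upstream) and *g4247* (49 bp downstream).

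By the domains in the table, 148 of the 161 genes fell into 18 families of DNA-binding proteins and 13 into none of those listed. The bZIP family was the largest, with 29 genes, followed by 24 nuclear receptors, 18 forkhead genes, 13 POU or homeobox genes, 10 T-box genes and 8 each of the ETS, bHLH and doublesex/DM families. Some genes carried the term although their other domains mark another role. *g7575* has an Snf7 domain of membrane-remodelling proteins, *g10167* was annotated as the histone methyltransferase trithorax, *g4491* as the histone acetyltransferase KAT7 and *g8139* as a TFIID subunit. These genes were kept in the counts, with *g7575* among the POU and homeobox genes and *g10167* among the nuclear receptors. The members were spread over the chromosomes unevenly: chromosome 2 held 34.8% of them against 27.5% of all genes, and chromosome 4 held 8.07% against 18.1%.

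The transcription factor genes were expressed about as often as other genes. Of the 161, 33 were listed at 0 in all groups, another 45 stayed below 1 TPM, and 83 (51.6%) reached 1 TPM in some group, against 50.4% of all genes. Of these, 64 reached 10 TPM and 13 reached 100 TPM, or 39.8% and 8.07% of the 161, against 36.1% and 9.24% of all genes. Among all genes 21.8% were listed at 0, and 27.8% were above 0 but below 1 TPM in every group. Among the 83, the mean over the 8 groups had a median of 16.9 TPM, against 16.4 TPM for all genes of at least 1 TPM.

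Families differed in how many of their genes were on. Of the 29 bZIP genes, 18 reached 1 TPM and 16 reached 10 TPM, and 5 of 7 GATA genes, 4 of 5 SMAD genes and 4 of 5 E2F/DP genes also reached 1 TPM. Only 2 of 13 POU and homeobox genes (one of them *g7575*, with the Snf7 domain), 1 of 10 T-box genes and 1 of 4 Runt genes did so. The silent homeobox genes included *g4028* (Deformed), *g4031* (Sex combs reduced) and *g4033* (Antennapedia), the Hox genes that set segment identity in the fly, all listed at 0 in all groups. In the counting, a read that fitted more than 1 place was dropped, so levels of neighbouring copies such as *g4928* and *g4930* (nubbin) or *g10390*, *g10392* and *g10393* (GATA) are uncertain, and reads were not stated to be counted by strand.

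A pair of bZIP genes made up much of the transcription factor RNA. *g8208* (chromosome 2, 29062345 to 29063695, minus strand), a bZIP gene to which the table gives no name, was at 2149.6 TPM in WT, 1277 in *Hsf1*-/-, 1557 in control cells and 2032 in rescue cells at T0. At T48 it was at 5215, 3829.8, 3198 and 2881 TPM in the same order. It was higher at T48 in all 4 lines, with log2 ratios of 1.28, 1.58, 1.04 and 0.50 (0.69, 1.26, 0.66 and 0.42 after scaling), and it ranked 79th of all 17782 genes by its mean over the groups. It held 50.4% of the summed TPM of the members in WT at T48.

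*g14005* (chromosome 3, 33961925 to 33966740, plus strand) encodes a factor of the ATF4 type, a bZIP regulator of amino acid and stress-response genes. Its mean TPM at T0 was 1497 in WT, 2548 in *Hsf1*-/-, 2620.2 in control cells and 2303 in rescue cells. At T48 the values were 1227, 1346, 1296 and 1818 TPM. It was lower at T48 in all 4 lines, with log2 ratios of -0.29, -0.92, -1.02 and -0.34, and the order of these most abundant genes was reversed between T0 and T48 in the *Hsf1*-/-, control and rescue cells. The summed TPM of all 161 members was 5967 in WT, 6046 in *Hsf1*-/-, 6515 in control cells and 6679 in rescue cells at T0, and 10357, 8730.5, 8370.3 and 7584 at T48. Without *g8208* and *g14005* the sums lay between 2221 and 2344 at T0 and between 2885 and 3915 at T48, with the rescue cells lowest at T48. These sums depend on the scale: after scaling the sum of all members was 6963 at T0 and 6874 at T48 in control cells and higher at T48 than at T0 in the other lines. Without *g8208* and *g14005* the scaled T48 sums were 3371 in WT, 2954 in *Hsf1*-/-, 3184 in control cells and 3045 in rescue cells, with *Hsf1*-/- lowest.

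The next in abundance were *g5127*, a short bZIP gene without a name, *g6508*, a bZIP gene of the CREBL2 type, and *g10964*, which encodes NFAT, a Rel-domain factor. *g6508* lay between 192 TPM (*Hsf1*-/- at T0) and 372 TPM (rescue cells at T48). *g10964* was at 168, 103, 127 and 155 TPM in WT, *Hsf1*-/-, control and rescue cells at T0 and at 349, 185, 231 and 234 TPM at T48, so it was higher at T48 in every line and past 2-fold in WT (log2 ratio 1.05, and 0.47 after scaling). Among the 83 members of at least 1 TPM, 33 (39.8%) stayed within 2-fold over all 8 groups and 50 did not. The share within 2-fold was 29.4% for all genes.

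**Figure D2:**
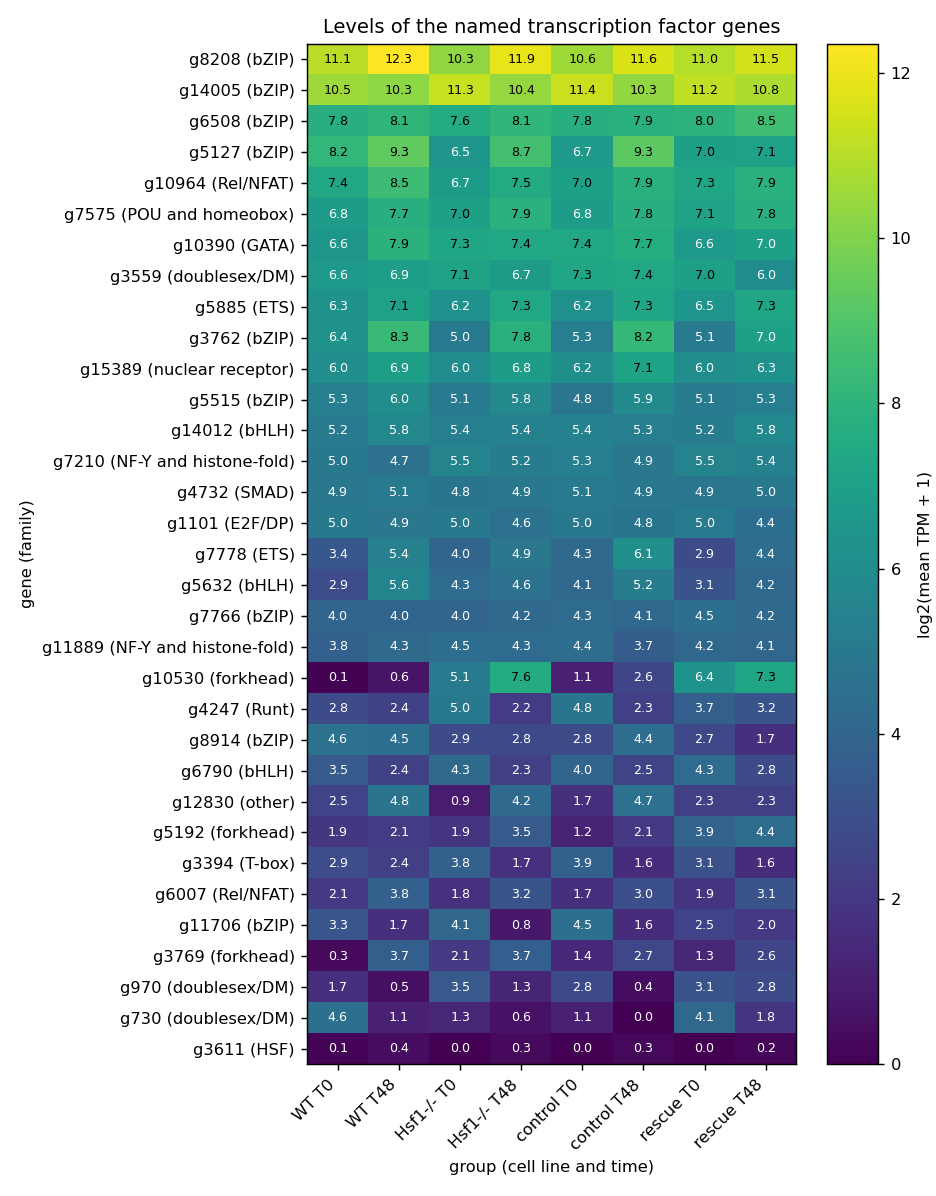
Rows are the 33 transcription factor genes taken by the rule for named genes, columns are the 8 groups, and colour and numbers give log2(mean TPM + 1). *g8208* and *g14005* are the brightest rows in every group, and *g3611* (*Hsf1*) stays near 0 in all of them.

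*Hsf1* (*g3611*, chromosome 1, 26743486 to 26747182, minus strand) is a member of the list and the only gene of the table with an HSF domain. It is taken as *Hsf1* from the table's annotation as the heat shock factor of this species, since the sources used here give no identifier for the edited gene. At T0 and T48 its mean TPM was 0.0863 and 0.307 in WT, 0.0271 and 0.248 in *Hsf1*-/-, 0.0110 and 0.197 in control cells and 0.00892 and 0.139 in rescue cells. All of these are far below 1 TPM, so the level of this gene cannot check the labels, by which the lines are named. Whether *g3611* is the edited gene was not tested, and the name *Hsf1* rests on the annotation alone. Expression of *g7775*, the locus that drives the inserted copy, lay between 12040 TPM (rescue cells at T48) and 102838 TPM (WT at T0). In the rescue cells, which carried the inserted *Hsf1* copy at *g7775*, the level of *g3611* was below that of the control cells at both times.

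After trehalose, 79 members could be compared in WT, and 15 of them were higher by at least 2-fold and 4 lower, against 25.7% and 4.61% of all genes (30.3% in either direction). In *Hsf1*-/- cells 16 were higher and 5 lower of 80 (all genes 22.7% and 8.26%, together 31.0%), and in control cells 20 were higher and 9 lower of 78 (all genes 24.5% and 8.25%, together 32.7%). In the rescue cells 6 were higher and 4 lower of 81 (all genes 11.5% and 6.70%, together 18.2%). The rescue cells thus had the fewest members past 2-fold, and the same held for all genes. After scaling the counts were 6 higher and 6 lower in WT (all genes 12.6% and 11.1%), 12 and 9 in *Hsf1*-/- (15.5% and 14.0%), 9 and 11 in control cells (15.5% and 14.0%) and 5 and 5 in rescue cells (10.5% and 7.97%). The excess of higher over lower genes in WT and in control cells therefore rests on the scale. The median log2 ratio of the members was 0.44 in WT, 0.21 in *Hsf1*-/-, 0.26 in control cells and 0.08 in rescue cells, near the medians of all genes given above.

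**Figure D3:**
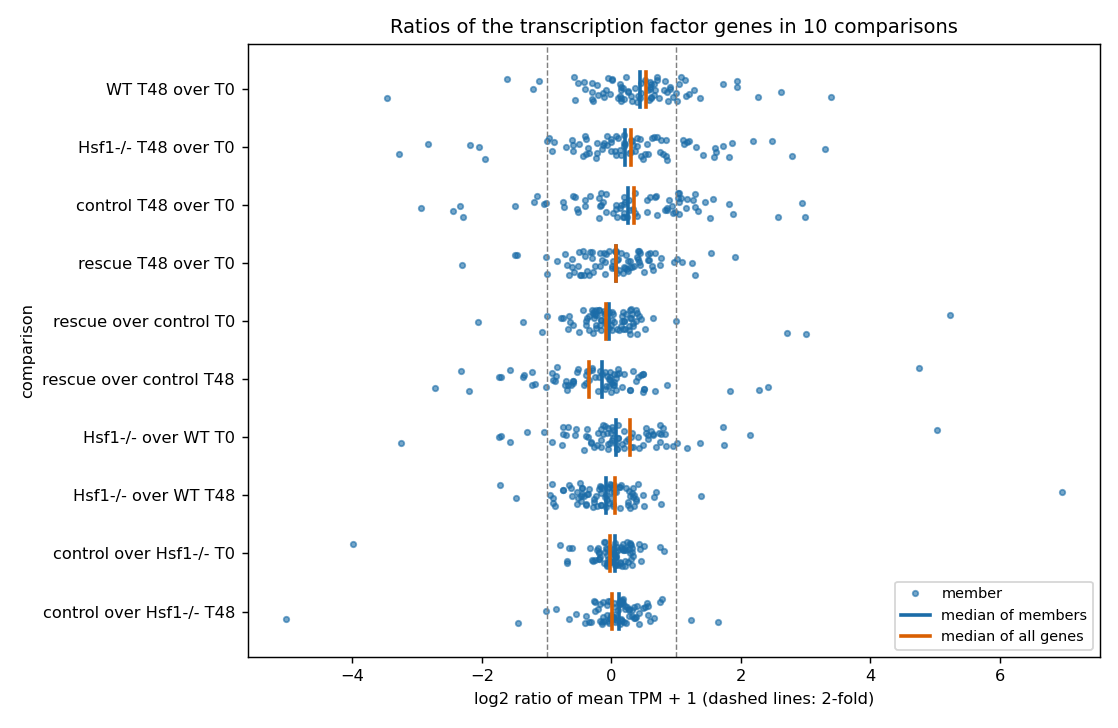
Each point is 1 transcription factor gene of at least 1 TPM in one of the groups compared, with its log2 ratio of mean TPM + 1 on the x axis and the comparison on the y axis (points are spread vertically for view). The blue and orange bars are the medians of the members and of all genes, which lie at 0.08 and 0.08 for the rescue cells at T48 over T0 and at -0.15 and -0.34 for rescue over control cells at T48.

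Few members responded alike in every line. Higher by at least 2-fold at T48 in all 4 lines were 3 of 76 members, against 6.81% of all genes, and lower in all 4 was 1, against 2.21%. *g3762* (chromosome 1, 27869948 to 27871973, minus strand) is the gene of vrille, a bZIP repressor of the fly circadian clock. It was at 80.7, 32.0, 37.6 and 32.9 TPM in WT, *Hsf1*-/-, control and rescue cells at T0 and at 314, 227, 295 and 126 TPM at T48. Every line was higher at T48, with log2 ratios of 1.95, 2.79, 2.94 and 1.91, and all 4 stayed past 2-fold after scaling, at 1.37, 2.46, 2.56 and 1.83.

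*g6007* is the gene of dorsal, the Rel factor of the Toll pathway in the fly. It was at 3.24, 2.42, 2.18 and 2.72 TPM at T0 and at 13.0, 8.10, 7.06 and 7.79 TPM at T48 in the same order of lines, and it was past 2-fold in all of them before and after scaling. *g3769*, a forkhead gene, had 0.255, 3.21, 1.62 and 1.47 TPM at T0 and 12.2, 11.8, 5.39 and 5.03 TPM at T48. Its T0 levels were near the limit of 1 TPM, and its ratio in control cells was 1.29 as deposited and 0.99 after scaling.

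The member that was lower in all 4 lines was *g6790*, the gene of ARNT, the bHLH partner of several stress-sensing factors. It was at 10.7, 18.5, 15.4 and 18.7 TPM at T0 and at 4.38, 4.03, 4.84 and 6.14 TPM at T48 in WT, *Hsf1*-/-, control and rescue cells. All T48 values were below all T0 values. *g3394*, a T-box gene, was also lower by at least 2-fold at T48 in 3 lines, with 12.8 and 2.36 TPM at T0 and T48 in *Hsf1*-/-, 13.5 and 1.97 TPM in control cells and 7.45 and 2.01 TPM in rescue cells. In WT it went from 6.67 to 4.12 TPM, a log2 ratio of -0.58 that became -1.08 after scaling.

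A larger set was higher at T48 in both lines without HSF1, *Hsf1*-/- and the control cells. This held for 13 of 76 members, against 19.6% of all genes. Of these 13, 9 (69.2%) were not past 2-fold in rescue cells, against 60.6% of the genes of the same kind in the whole table, and 7 were also past 2-fold in WT, against 63.4%. After scaling the set had 7 of 76 members, against 12.0% of all genes. Of these 7, 5 were not past 2-fold in rescue cells, where the share among all genes was 52.4%. The members thus followed the whole table in this.

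One of the 9 was *g5127* (chromosome 2, 7202089 to 7202554, minus strand). At T0 it was at 287 TPM in WT, 88.0 in *Hsf1*-/-, 102 in control cells and 128 in rescue cells, and at T48 at 634, 403, 613 and 133 TPM. It was higher after trehalose in WT, *Hsf1*-/- and control cells, with log2 ratios of 1.14, 2.18 and 2.57, and level in rescue cells, at 0.05. In WT the ratio was 0.55 after scaling, and in *Hsf1*-/- and the control cells it was 1.86 and 2.19.

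*g12830* (chromosome 3, 26462890 to 26465430, plus strand) is annotated as a myelin regulatory factor, a membrane-bound factor that is released by cleavage. Its level was 4.68, 0.909, 2.22 and 4.03 TPM in WT, *Hsf1*-/-, control and rescue cells at T0, and 26.3, 17.8, 24.5 and 4.07 TPM at T48. The log2 ratios were 2.27, 3.30, 2.99 and 0.01, so the rescue cells alone stayed at their T0 level. *g13032*, a bZIP gene with a zinc finger, went from 17.2 to 59.4 TPM in *Hsf1*-/- and from 15.2 to 56.5 TPM in control cells, but from 33.4 to 36.6 TPM in WT and from 20.3 to 24.3 TPM in rescue cells. *g4469*, the gene of shuttle craft, an NF-X1 type factor, went from 65.6 to 147 TPM in WT, 50.3 to 185 in *Hsf1*-/-, 69.6 to 202 in control cells and 50.9 to 77.9 in rescue cells.

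Lower at T48 in both lines without HSF1 were 5 of 76 members, against 6.66% of all genes, and 3 of these 5 were not past 2-fold in rescue cells, against 48.3%. After scaling the counts were 8 of 76 (all genes 11.6%) and 6 of these 8 (all genes 59.2%), with *g14005*, *g10855* (E2F) and *g17113* (the ETS gene Ets97D) added. The 3 on the deposited scale were *g4247*, *g11706* and *g970*. *g4247* (chromosome 2, 616844 to 623213, plus strand), a Runt-domain gene, went from 30.6 to 3.46 TPM in *Hsf1*-/- and from 26.8 to 4.08 TPM in control cells, but from 6.13 to 4.41 TPM in WT and from 12.2 to 8.25 TPM in rescue cells. At T0 it was higher in the lines without HSF1, and at T48 the rescue cells had the highest level. *g11706*, a bZIP gene, went from 16.1 to 0.755 TPM in *Hsf1*-/-, from 22.0 to 2.00 in control cells, from 8.80 to 2.19 in WT and from 4.52 to 3.13 in rescue cells.

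**Figure D4:**
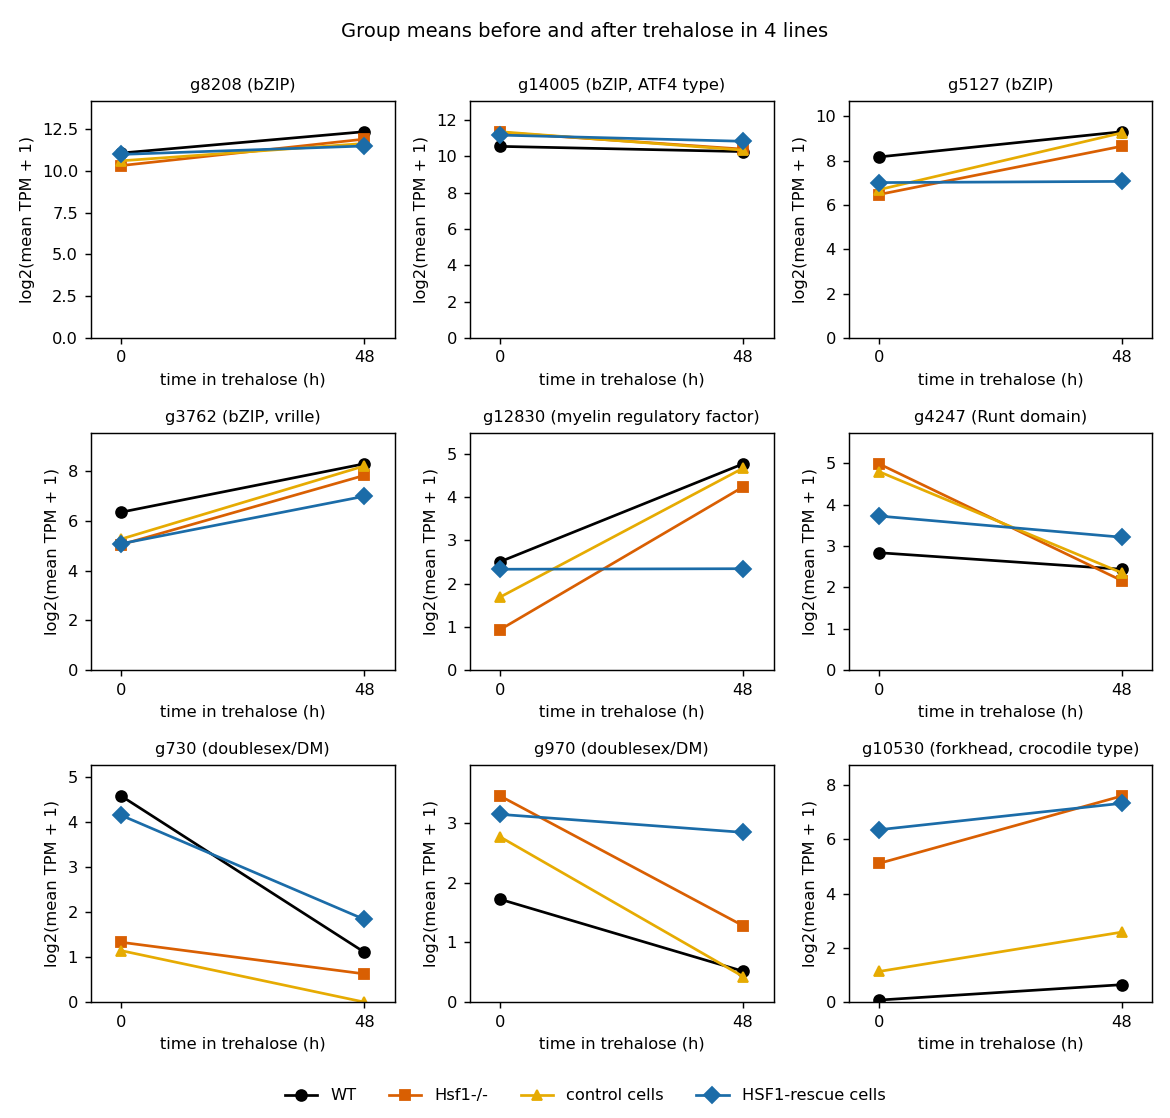
Each panel is 1 transcription factor gene, with time in trehalose in h on the x axis and log2(mean TPM + 1) on the y axis, which starts at 0. Each point is 1 group mean and lines join T0 and T48 of a cell line. *g5127* and *g12830* are flat in rescue cells (128 to 133 TPM and 4.03 to 4.07 TPM) and higher at T48 in the other lines.

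The rescue and control cells were compared at the same time point, which sets cells with the inserted *Hsf1* against cells with the same insert locus and no *Hsf1*. At T0, 3 of 80 members were higher in rescue cells and 3 lower, against 4.57% and 2.41% of all genes (6.98% in either direction), and after scaling 4 were higher and 3 lower, against 7.29% in either direction. At T48, 4 of 79 were higher and 12 lower, against 5.83% and 14.2% (20.0% in either direction). After scaling the T48 counts were 6 higher and 7 lower, against 9.64% and 7.01%, and all 7 were among the 12. The median log2 ratio of the members at T48 was -0.15 as deposited and 0.21 after scaling, against -0.34 and -0.00 for all genes, so the median changed sign with the scale. The counts were near the share of all genes in each direction.

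The members lower in rescue cells at T48 belonged to several families. They were the bZIP genes *g8914* (log2 ratio -2.72), *g5127* (-2.19), *g3762* (-1.22) and *g13032* (-1.18), the bHLH genes *g7121* (-1.74) and *g5632* (-1.01), *g12830* (-2.33), *g4469* (-1.36), the ETS gene *g7778* (-1.70), the forkhead gene *g11689* (-1.57), the DM gene *g3559* (-1.34) and the E2F gene *g13179* (-1.23). After scaling, *g3762*, *g13032*, *g5632*, *g3559* and *g13179* were no longer past 2-fold. *g7121* encodes Clock, the activating bHLH factor of the circadian oscillator. It was at 22.2 TPM in control cells and 5.96 TPM in rescue cells at T48, and at 15.2 and 14.8 TPM in WT and *Hsf1*-/-, which did not differ by 2-fold. Its partner cycle (*g5524*) was at 1.35 and 2.35 TPM in the control and rescue cells.

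Higher in rescue cells at T48 were the forkhead genes *g10530* and *g5192* and the DM genes *g970* and *g730*, the last against a control group listed at 0. After scaling *g4247* (1.16) and *g6508* (1.04) joined them. *g970* was at 2.30, 9.97, 5.82 and 7.86 TPM at T0 in WT, *Hsf1*-/-, control and rescue cells and at 0.431, 1.43, 0.345 and 6.18 TPM at T48. It stayed within 2-fold in rescue cells and was lower by at least 2-fold at T48 in the other lines. *g5192* was at 14.4 and 19.5 TPM in rescue cells at T0 and T48, and at 1.35 and 3.20 TPM in control cells, 2.70 and 10.4 TPM in *Hsf1*-/- and 2.83 and 3.38 TPM in WT.

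The *Hsf1*-/- and WT cells gave the other pair without and with HSF1. At T0, 7 of 80 members were higher in *Hsf1*-/- and 6 lower, against 13.4% and 5.59% of all genes (19.0% in either direction), and after scaling 5 were higher and 10 lower, against 16.2% in either direction. At T48, 2 of 81 members were higher and 2 lower, against 4.32% and 4.84% (9.16% in either direction), and the counts were the same after scaling, where 8.50% of all genes passed. These lines thus differed in more members before trehalose than after it, and the same held for all genes. *g8914*, an unnamed bZIP gene, was lower in *Hsf1*-/- at both times, at 6.33 against 23.3 TPM at T0 and 5.79 against 21.4 TPM at T48. *g5127*, *g3762* and *g12830* were lower in *Hsf1*-/- at T0 (log2 ratios -1.70, -1.31 and -1.57) and within 2-fold of WT at T48 (-0.65, -0.47 and -0.53). *g363*, the gene of FOXO, a forkhead factor of insulin signalling, was at 8.65 TPM in *Hsf1*-/- and 3.28 TPM in WT at T0, a log2 ratio of 1.17, and 0.93 after scaling.

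The pair of rescue and control cells and the pair of WT and *Hsf1*-/- cells share no library, so genes on the same side in both can be counted. At T0, 1 of 79 members was higher with HSF1 in both pairs and 1 was lower, against 1.05% and 1.10% of all genes, and the same members passed after scaling. At T48 there were 0 of 78 in either direction, against 1.43% and 1.52% of all genes, and 0 after scaling.

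The member higher with HSF1 at T0 was *g730* (chromosome 1, 5537321 to 5549108, minus strand), a gene with a DM domain, the zinc-binding fold of the sex-determination factor doublesex. It was at 22.9 TPM in WT and 16.7 TPM in rescue cells, and at 1.51 TPM in *Hsf1*-/- and 1.21 TPM in control cells. The lines with and without HSF1 were thus far apart, with log2 ratios of 3.00 for rescue over control cells and -3.25 for *Hsf1*-/- over WT. At T48 it was at 1.16 TPM in WT, 2.57 TPM in rescue cells and 0.543 TPM in *Hsf1*-/-, and was listed at 0 in control cells. No HSE match was listed for it.

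The member lower with HSF1 at T0 was *g4247*, the Runt-domain gene whose site shares its 13 bases with that of *Hsf1*. Its T0 levels of 6.13 TPM in WT and 12.2 TPM in rescue cells lay below those of 30.6 TPM in *Hsf1*-/- and 26.8 TPM in control cells. The log2 ratio was -1.07 for rescue over control cells, close to the threshold, and 2.15 for *Hsf1*-/- over WT. The rule for named genes covered agreement of the pairs at T48, and agreement at T0 was picked out after the values were seen.

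Opposite directions in the pairs also occurred. *g10530* (chromosome 3, 10364615 to 10366171, plus strand), a forkhead gene like crocodile of the fly, was at 0.0525, 33.6, 1.19 and 80.7 TPM in WT, *Hsf1*-/-, control and rescue cells at T0 and at 0.559, 193, 4.98 and 159.7 TPM at T48. It was high in *Hsf1*-/- and the rescue cells and low in WT and the control cells, which is not the order of lines with and without HSF1. *g5192* was higher in both rescue and *Hsf1*-/- cells than in their partners at T48, and *g8914* lower. For genes of this kind 1 of 79 members was found at T0 and 3 of 78 at T48, against 0.588% of all genes at T0 (higher in both), 0.105% at T0 (lower in both), and 0.534% (higher) and 0.497% (lower) at T48.

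**Figure D5:**
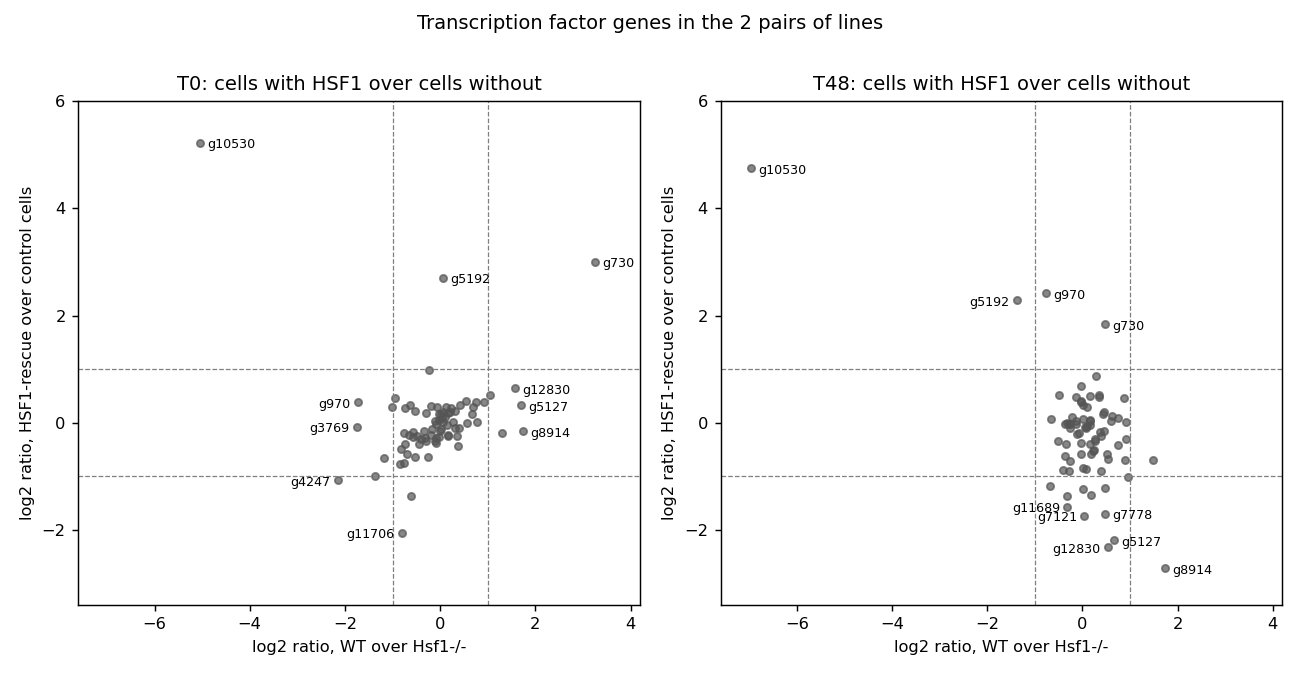
Points are transcription factor genes, with the log2 ratio of WT over *Hsf1*-/- on the x axis and of rescue over control cells on the y axis, at T0 (left) and T48 (right), and dashed lines mark 2-fold. At T0 *g730* stands in the upper right corner and *g4247* in the lower left, and at T48 no gene is past 2-fold in the same direction in both pairs.

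The control and *Hsf1*-/- cells both lack HSF1, and their comparison gives the size of differences between a pair of lines of the same HSF1 status. At T0, 0 of 79 members were higher in control cells and 1 lower, against 1.78% of all genes in either direction, and at T48, 2 were higher and 3 lower of 79, against 2.67%. After scaling 2 were higher and 2 lower of 77 at T48, against 2.30%. The T0 member was *g10530*. At T48 *g8914* (20.2 against 5.79 TPM) and *g7778* (69.1 against 28.7 TPM) were higher in control cells, and *g10530*, *g5192* and *g3769* were lower, of which *g3769* was no longer past 2-fold after scaling. The values of *g8914* and *g7778* in control cells at T48 enter the comparison with the rescue cells as well. In the rescue cells at T48 *g8914* was at 2.22 TPM and *g7778* at 20.5 TPM, nearer to the levels of *Hsf1*-/- than to those of the control cells.

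*g10955*, the ecdysone receptor, lay between 25.8 and 36.1 TPM in the 8 groups and its partner ultraspiracle (*g11122*) between 4.55 and 7.85 TPM, so neither of the receptor subunits was past 2-fold in a comparison. The early-response gene *g15389* (Eip75B, a nuclear receptor that binds haem in the fly) was the most abundant nuclear receptor. It was at 64.8, 64.2, 70.5 and 64.9 TPM at T0 and at 115, 109, 140.1 and 76.9 TPM at T48 in WT, *Hsf1*-/-, control and rescue cells. *g7778* (Eip74EF, an ETS factor of the same early response) was at 9.71, 15.4, 18.1 and 6.40 TPM at T0 and at 40.2, 28.7, 69.1 and 20.5 TPM at T48, higher in every line, with log2 ratios of 1.94, 0.85, 1.88 and 1.54. *g6818* (Eip78C) was listed at 0 in all groups.

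Stress and signalling factors of the bZIP family differed in their response. *g3729*, the gene of cap'n'collar, the NRF-type factor of the antioxidant response, lay between 44.9 TPM (WT at T0) and 73.8 TPM (rescue cells at T48). *g7766*, of the ATF6 type, which is released from the endoplasmic reticulum under protein-folding stress, lay between 14.7 and 21.5 TPM, and *g5515*, of the CREB1 type, between 27.5 and 64.9 TPM. *g16387*, the gene of Jun, was at 18.1 and 40.0 TPM in *Hsf1*-/- and 17.8 and 41.5 TPM in control cells at T0 and T48, and at 20.5 and 21.6 TPM in rescue cells, and it was past 2-fold in none of these lines after scaling. Of 18 bZIP genes that could be compared in *Hsf1*-/- cells, 6 were higher at T48 and 1 lower, of 17 in control cells 8 and 2, of 17 in WT 3 and 1 and of 17 in rescue cells 1 and 0. The shares of all genes in the same order of lines were 22.7% and 8.26%, 24.5% and 8.25%, 25.7% and 4.61%, and 11.5% and 6.70%. After scaling the bZIP counts were 4 and 2, 4 and 2, 1 and 1, and 1 and 1, beside 15.5% and 14.0%, 15.5% and 14.0%, 12.6% and 11.1%, and 10.5% and 7.97% of all genes.

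The NF-Y subunits, which bind CCAAT boxes, stayed within 2-fold in the 10 comparisons as deposited, and after scaling *g11889* was lower at T48 in control cells, with a log2 ratio of -1.09. *g7210* (NF-YA) lay between 24.6 and 45.5 TPM and *g11889* (NF-YC) between 11.6 and 20.9 TPM. The SMAD gene *g4732* (Mad, the effector of BMP signalling) was the flattest of the named members, between 26.5 and 33.1 TPM, and *g1101* (E2F) lay between 20.8 and 31.6 TPM. *g5632*, the gene of an atonal-type bHLH factor, varied more. It was at 6.68, 18.9, 16.5 and 7.83 TPM at T0 and at 46.1, 23.5, 35.1 and 16.9 TPM at T48 in WT, *Hsf1*-/-, control and rescue cells, so the lines without HSF1 were higher at T0 and WT was highest at T48. Its ratio of rescue over control cells at T0 was -0.99 and that of *Hsf1*-/- over WT was 1.37.

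Members with and without an HSE were set side by side in the same way. Of members with a match to the 4 longer motifs, 17 could be compared at T48, and 0 were higher and 2 lower in rescue than in control cells (2 and 1 after scaling), and their median log2 ratio was -0.03. Of all genes with such a match, 141 of 1742 were higher and 196 lower (227 and 105 of 1724 after scaling). Of the 62 without such a match, 4 were higher and 10 lower (4 and 6 after scaling), with a median of -0.20, and of all genes without one, 352 of 6712 were higher and 1005 lower (580 and 482 of 6644 after scaling). Over all genes the medians were -0.25 with and -0.36 without a match. After scaling the members' medians were 0.29 with and 0.13 without a match, and those of all genes 0.08 and -0.02, so in this comparison the sign depended on the scale and the order did not. The order of the members' medians varied over the other comparisons. For T48 over T0 they were 0.23 with and 0.21 without a match in *Hsf1*-/- (-0.07 and -0.12 after scaling). In rescue cells they were -0.17 and 0.09 (-0.26 and 0.01 after scaling). The ecdysone receptor gene *g10955* was at 35.5 TPM in control cells and 31.2 TPM in rescue cells at T48. *g15394* was at 7.59 and 7.42 TPM, *g363* at 5.94 and 6.92 TPM and *g4247* at 4.08 and 8.25 TPM in the same groups.

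Among the ETS factors, *g5885*, which has a Pointed domain, was the most abundant. It was at 80.4, 73.7, 73.1 and 89.4 TPM at T0 and at 132, 161, 156 and 153 TPM at T48 in WT, *Hsf1*-/-, control and rescue cells, past 2-fold in *Hsf1*-/- (1.12) and the control cells (1.08) as deposited and in neither after scaling (0.79 and 0.70). The GATA gene *g10390* was at 92.9, 158, 166 and 98.6 TPM at T0 and at 242, 167, 201 and 126 TPM at T48, so at T0 the lines without HSF1 were higher and at T48 WT was. The DM gene *g3559* was at 165 TPM in control cells and 64.3 TPM in rescue cells at T48, while its T0 levels lay between 97.4 and 155 TPM. The ARNT-like bHLH gene *g14012* lay between 34.6 and 53.5 TPM and was within 2-fold throughout. *g7575*, the gene with the Snf7 domain, was about as much higher at T48 in each line, with log2 ratios of 0.90, 0.85, 0.94 and 0.67. The genes *g4469*, *g13032*, *g7121*, *g5524*, *g363*, *g10955*, *g11122*, *g15394*, *g16387*, *g3729* and *g6818*, and the others named by family only, were outside the rule for named genes and were chosen after their values were seen.

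Genes of related function that are not members were counted in the same way. Among 124 other genes for regulation of transcription, 25 of 85 were higher at T48 in WT and 2 lower, with a median log2 ratio of 0.67, and 5 and 7 after scaling, with a median of 0.14. In rescue over control cells at T48, 5 of 83 were higher and 9 lower (6 and 6 after scaling), with a median of -0.39. Among 91 other genes for sequence-specific DNA binding, 18 could be compared there, 2 were higher and 3 lower (2 and 1 after scaling), with a median of -0.54. Among 73 genes of basal transcription (RNA polymerases, initiation, the mediator complex and TFIID), 0 of 69 were higher and 9 lower (4 and 3 after scaling), with a median of -0.27. In this comparison the members' median of -0.15 was the highest of these lists, and it remained so after scaling, at 0.21 against -0.05, -0.21 and -0.02. The median of all genes was -0.34, and -0.00 after scaling. The order did not hold at T48 over T0 in WT. There the members' median of 0.44 was below the 0.67 of the other genes for regulation of transcription, as was -0.11 against 0.14 after scaling.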

How the data were processed

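Poly(A) RNA of 24 libraries was sequenced. Per the study's methods, the authors used Trimmomatic for trimming and Hisat2 for alignment to the Pv_5.2 assembly, marked duplicates with Picard, sorted with samtools 1.9 and counted reads per gene with HTSeq 0.6.0 without multi-mapping or ambiguous reads. The deposited TPM values are the authors' means of the 3 libraries of a group, on 25248 rows for 17782 genes, and each gene was taken once. The score, position and p-value of each motif match are those the authors deposited from FIMO, run at p under 0.0001 in 1000 bp around start sites. The authors' cluster columns were not used.

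Ratios were taken on log2(TPM + 1) in 10 comparisons. A limma test was planned for library values, but group means carry no replicate spread, so no test was run and genes past 2-fold (at least 1 TPM in one group) were counted beside all genes. Members were sorted into families by domain. Named genes (33) were the 6 most abundant members, the 2 highest and 2 lowest ratios of each comparison with or without trehalose or HSF1 among members of at least 5 TPM, HSF, NF-Y, CREB and NFAT genes, the most abundant member of each larger family and members of at least 5 TPM past 2-fold in all 4 lines or in both HSF1 pairs at T48. The members and lists were chosen with earlier results of these data known. Median-of-ratios factors used 8873 genes above 0 in all 8 groups. Alternatives were pseudocounts of 0.1 and 0.01, no minimum, a minimum of 5 TPM, the scaling, removal of the 10 most abundant genes, a 1.5-fold threshold and inclusion of the 3 genes left out. Scripts were tested on simulated data (Python 3.11.15, pandas 2.3.3, numpy 2.4.6, matplotlib 3.10.9).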

Additional observations from a re-analysis of the deposited data

How the results depend on the processing

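No paired analysis was possible because the values are group means without libraries, and for the same reason no replicate could be left out. Counts of members past 2-fold in either direction moved most with the threshold. At 1.5-fold, with the smaller pseudocounts and without the 10 most abundant genes, no share of all genes is given. The counts at these settings therefore do not set the members apart from other genes. At 1.5-fold the counts were 38 instead of 19 for T48 over T0 in WT, 38 instead of 21 in *Hsf1*-/- and 25 instead of 10 in the HSF1-rescue cells. For HSF1-rescue over control cells they were 15 instead of 6 at T0 and 31 instead of 16 at T48, for *Hsf1*-/- over WT 31 instead of 13 at T0 and 17 instead of 4 at T48, and for control cells over *Hsf1*-/- 8 instead of 1 at T0 and 11 instead of 5 at T48. With median-of-ratios scaling the WT count was 12. With pseudocounts of 0.1 and 0.01 the counts were 7 and 8 for *Hsf1*-/- over WT at T48, 5 and 5 for control cells over *Hsf1*-/- at T0, and 8 and 8 at T48. The share of members with an HSE was 22.4%, 16.1% without MA0319.1 and 2.48% at a FIMO p under 1e-05. For all genes these shares were 27.6%, 19.1% and 2.615%. Of 92 ratios of named genes past 2-fold, 77 stayed so after scaling. The other 15 dropped under 2-fold, among them those of *g8208* in WT (0.69) and the control cells (0.66). All 92 stayed past 2-fold with a pseudocount of 0.1, but this was fixed in advance, since a smaller pseudocount can only widen a ratio. Neither setting could reverse a ratio past 2-fold, since the scaling factors lay between 0.774 and 1.22, and none of the 92 changed sign. Medians near 0 did: with scaling the members' median log2 ratio of T48 over T0 went from 0.44 to -0.11 in WT, 0.21 to -0.12 in *Hsf1*-/-, 0.26 to -0.04 in control cells and 0.08 to -0.01 in rescue cells, that of rescue over control cells from -0.03 to 0.03 at T0 and -0.15 to 0.21 at T48, and that of *Hsf1*-/- over WT at T0 from 0.08 to -0.20 (-0.01 without the 10 most abundant genes). The larger direction also changed in control cells at T48 over T0 (20 higher and 9 lower, 9 and 11 when scaled), in rescue cells (6 and 4, 7 and 8 with either smaller pseudocount) and in *Hsf1*-/- over WT at T0 (7 and 6, 5 and 10 when scaled, 6 and 7 without the 10 most abundant genes). Depth and replicate error are unknown from these values, so ratios near 2-fold and levels near 1 TPM are the least certain.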
